A study of Mus musculus with 9 samples.

Results

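The genes described here mark neural progenitors and neurons: Nes, Zfp521, Olig2, Sox11, Sox1, Tubb3, Map2, Ncam1 and Islr2. They were chosen by symbol, as 9 named genes, among the 33924 genes of a read count table. Of these, 8 had a row in the table, 7 under the current symbol and Map2 under its older symbol Mtap2, and all 8 passed the filter on low counts. Sox1, an early factor of the neural plate, was not analysed here. In cells labelled MLL4 KD (knockdown), Nes and Tubb3 were lower than in wild type cells and the other 6 genes were higher. In UTX knockout cells Nes and Tubb3 were also lower, and Ncam1 and Zfp521 were higher.

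The study sequenced RNA from male mouse embryonic stem cells, the pluripotent cells of the early embryo, grown on gelatin in medium with serum and the cytokine LIF. The 3 groups had 3 libraries each. One group carries the label MLL4 KD, where MLL4 (gene Kmt2d) is an H3K4 methyltransferase of enhancers, and its titles give JM8A with a further number. Another is a knockout of UTX (gene Kdm6a), an H3K27 demethylase of the same complex, with A6 in all 3 titles. Wild type libraries are titled JM8A. The labels explain neither A6 nor that number, do not say how MLL4 was knocked down, and give no treatment in any group. Differences between lines or clones and the perturbation cannot be told apart. The series title joins UTX, MLL4 and p300 in regulation of enhancers, and the comparisons show how neural transcripts stand when either factor is targeted.

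A few facts of the whole series bear on these genes. Library totals lay between 18570746 and 23874816 counts. Kdm6a averaged 16.4 ± 3.33 CPM (normalised counts per library, scaled to a common total) in UTX knockout cells and 78.9 ± 18.9 CPM in wild type cells (SD, n = 3 each). Kmt2d averaged 72.1 ± 1.21 CPM in the libraries labelled MLL4 KD and 82.9 ± 37.9 CPM in wild type (log2 fold change -0.20, SE 0.27, adjusted p = 0.624), where single wild type libraries lay between 43.5 and 119 CPM. Against the UTX knockout (112 ± 16.7 CPM) its log2 fold change was -0.64 (SE 0.27, adjusted p = 0.0987). Neither comparison of its transcript passed, and every direction given for those libraries rests on the label. The cells are labelled male, and all 4 tested genes of chromosome Y were lower than wild type in both groups (median log2 fold change -4.18 in the libraries labelled MLL4 KD and -3.93 in the UTX knockout). Wild type replicate 2 stood apart in its length trend, the Spearman correlation with union exon length across genes. The value was -0.456 there, against -0.016 to 0.155 in the other libraries. Replicate 2 of each group was sequenced in lane 1 and replicates 1 and 3 in lane 2. Whether the libraries of a group are separate cultures is not stated, and the p-values describe the spread among these 9 libraries, which can be technical.

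Neural identity in the embryo begins when pluripotent cells turn into neuroepithelium, a step that signals such as BMP hold back and that cultures with LIF and serum do not favour. Progenitors then use Sox and zinc finger factors and the filament protein nestin. Neurons that leave the cycle assemble a cytoskeleton of neuron-enriched tubulin and microtubule-associated proteins and place adhesion proteins on the growing axon. Stem cell cultures carry low levels of many such transcripts. In RNA from whole cultures, fewer cells of a type and less RNA per cell cannot be told apart.

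The promoters of the 4 members with the largest fitted change in some comparison, among those whose promoter could be shown, are printed because these members moved in opposite directions. Each runs from 250 bases before to 50 bases after the RefSeq start (build GRCm38.p6, 5′ to 3′ on the gene's strand). Capitals mark ACAAT, the core of the motif bound by Sox factors, or its reverse complement ATTGT. Nes lies at chr3:87970843-87971142 on the plus strand, Tubb3 at chr8:123411303-123411602 on the plus strand, Olig2 at chr16:91225300-91225599 on the plus strand and Islr2 at chr9:58204270-58204569 on the minus strand.
Nes: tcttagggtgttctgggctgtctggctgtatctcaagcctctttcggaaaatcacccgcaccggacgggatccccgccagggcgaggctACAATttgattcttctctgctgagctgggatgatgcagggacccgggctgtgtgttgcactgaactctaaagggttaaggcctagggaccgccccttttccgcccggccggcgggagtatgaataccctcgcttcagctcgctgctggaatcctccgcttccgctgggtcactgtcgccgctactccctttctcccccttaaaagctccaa
Tubb3: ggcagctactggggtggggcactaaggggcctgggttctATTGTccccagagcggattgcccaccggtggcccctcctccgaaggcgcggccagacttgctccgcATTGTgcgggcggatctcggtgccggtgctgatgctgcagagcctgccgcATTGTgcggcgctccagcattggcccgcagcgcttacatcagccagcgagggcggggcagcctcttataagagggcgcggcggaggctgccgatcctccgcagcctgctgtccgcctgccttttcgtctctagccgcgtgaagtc
Olig2: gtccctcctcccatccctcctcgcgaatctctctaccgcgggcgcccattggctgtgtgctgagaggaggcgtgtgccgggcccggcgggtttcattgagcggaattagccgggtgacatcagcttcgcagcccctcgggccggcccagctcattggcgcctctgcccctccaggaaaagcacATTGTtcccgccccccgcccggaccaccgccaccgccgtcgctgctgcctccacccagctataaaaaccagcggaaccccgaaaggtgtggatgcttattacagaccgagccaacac
Islr2: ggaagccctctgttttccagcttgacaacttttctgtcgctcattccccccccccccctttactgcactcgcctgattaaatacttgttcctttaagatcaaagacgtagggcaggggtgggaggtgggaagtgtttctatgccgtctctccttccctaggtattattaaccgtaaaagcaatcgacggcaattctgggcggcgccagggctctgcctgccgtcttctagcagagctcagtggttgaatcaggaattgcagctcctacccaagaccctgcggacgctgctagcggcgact

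The Nes and Olig2 windows held 1 ACAAT match each on either strand, Tubb3 held 3 and Islr2 held 0. Over 27025 promoters of the same length, 31.6% held at least 1 match and 1.92% held at least 3. All 4 windows were rich in CG pairs, with 18 in Nes, 26 in Tubb3, 25 in Olig2 and 14 in Islr2, against a median of 7 over all promoters. A share of 36.9% of all promoters had at least 14 such pairs and 16.8% had at least 26. The letters TATAAA occurred in the Olig2 window and in 14.2% of all promoters. The letters CCAAT, on either strand, occurred 2 times in Olig2 and 1 time in Tubb3, and 37.9% of all promoters held at least 1 match and 12.2% at least 2. The Sox11 window, not printed, held 2 matches to CANNTG, the motif of bHLH factors, which 39.6% of all promoters held at least 2 times. Matches can overlap other motifs, and each is a description of letters only.

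Against wild type, the libraries labelled MLL4 KD had 6 members higher and 2 lower, and all 8 tested members passed. Over all 14772 tested genes 26.6% passed, 10.8% higher and 15.8% lower, and the share of the members that passed was above both. The members were chosen with earlier results of these data known, so a share above that of all genes is no test of them. The test was edgeR's quasi-likelihood test with Benjamini-Hochberg adjustment over all tested genes, called at adjusted p under 0.05. The median log2 fold change was 1.00 over the members and -0.018 over all genes, and the median size was 1.69 against 0.32. The groups did not overlap for any of the 8 members, 6 above and 2 below wild type, against 20.5% of all tested genes above and 22.4% below (42.9% in all). Within lane 2 alone 7 members passed, from -3.18 for Nes (adjusted p = 0.00356) to 2.67 for Islr2 (0.0262), and Sox11 had 0.62 (0.199).

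In the UTX knockout, 2 members were higher than in wild type, 2 were lower and 4 did not pass. Over all genes 15.5% passed, 6.55% higher and 8.92% lower. With the length trend of each library removed, an alternative chosen after seeing the data, 52.6% of the calls over all genes were higher in place of 42.4%, and in the libraries labelled MLL4 KD 58.4% in place of 40.5%. With TMM factors from outside chromosomes 4, 8 and Y the shares were 35.6% and 34.4%. The median log2 fold change was 0.46 over the members and -0.007 over all genes, with median sizes of 0.83 and 0.27. Groups did not overlap for 5 members, 3 above and 2 below, against 15.5% of all genes above and 16.0% below (31.5% in all). With the replicate number as a block 6 members passed, 4 higher and 2 lower, and the count over all genes was 3446 in place of 2285. Within lane 2, which holds 2 libraries a group, Tubb3 alone of the members passed (log2 fold change -1.45, adjusted p = 0.0212). There Nes had -1.54 and Ncam1 1.10 (adjusted p = 0.0565 each), and Zfp521 had 0.60 (0.197). Lane 1 holds 1 library a group and gives no test. Both comparisons use the same wild type libraries, so their values are set side by side below and no overlap between them is tested.

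**Figure D1:**
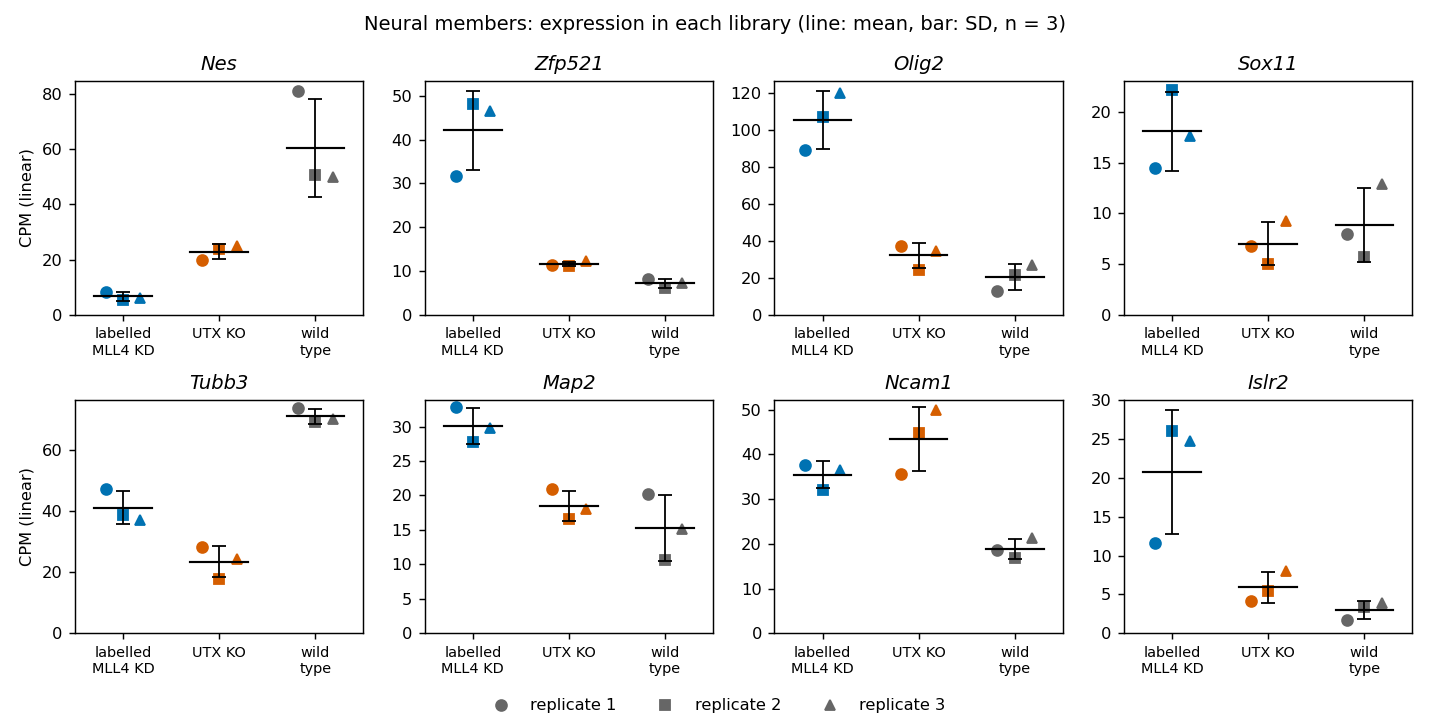
CPM on a linear axis for each of the 8 measured genes in the libraries labelled MLL4 KD, UTX knockout and wild type, with symbols for replicates, a line for the mean and a bar for the SD (n = 3). Nes is highest in wild type, with 50.1 to 80.9 CPM, and Olig2, Islr2 and Zfp521 are highest in the libraries labelled MLL4 KD.

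Among genes of progenitors, Nes encodes nestin, the intermediate filament of neural stem cells. It stood at 8.28, 5.48 and 6.16 CPM in replicates 1 to 3 labelled MLL4 KD, at 19.8, 23.9 and 25.1 CPM in the UTX knockout, and at 80.9, 50.5 and 50.1 CPM in wild type. The 3 groups were fully separate, with wild type highest and wild type replicate 1 above all other libraries. Nes was 9.13-fold lower than wild type in the libraries labelled MLL4 KD (log2 fold change -3.19, SE 0.23, 95% interval -3.69 to -2.69, adjusted p = 7.79e-06). Nes was 2.64-fold lower in the UTX knockout (-1.40, SE 0.21, interval -1.86 to -0.94, adjusted p = 0.00231). Only 0.961% of tested genes had a larger change than Nes in the first comparison and 4.07% in the second.

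Zfp521, a zinc finger factor that drives mouse stem cells into neural progenitors, moved the other way. Its levels were 31.8, 48.1 and 46.5 CPM in the libraries labelled MLL4 KD, 11.4, 11.2 and 12.2 CPM in the UTX knockout, and 8.21, 6.05 and 7.30 CPM in wild type. Again no groups overlapped, and the UTX knockout lay nearer to wild type. It was 5.87-fold higher in the libraries labelled MLL4 KD (log2 fold change 2.55, SE 0.18, interval 2.15 to 2.96, adjusted p = 7.79e-06). The rise was 1.61-fold in the UTX knockout (0.69, SE 0.18, interval 0.29 to 1.09, adjusted p = 0.0262). That smaller call was lost when UTX knockout replicate 2 (adjusted p = 0.0719) or 3 (0.0818) or wild type replicate 2 (0.0686) or 3 (0.057) was left out.

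Olig2 encodes a bHLH factor of motor neuron and oligodendrocyte progenitors. It stood at 88.9, 107 and 120 CPM in the libraries labelled MLL4 KD, at 37.4, 24.4 and 34.5 CPM in the UTX knockout, and at 13.0, 21.6 and 27.0 CPM in wild type. The first group lay above both others, while UTX knockout replicate 2 fell inside the wild type range. The log2 fold change against wild type was 2.35 in the libraries labelled MLL4 KD (SE 0.25, interval 1.81 to 2.90, adjusted p = 9.44e-05), a 5.11-fold rise. For the UTX knockout it was 0.64 (SE 0.24, interval 0.11 to 1.17, adjusted p = 0.0954), short of the threshold. It passed there with the replicate block (0.68, adjusted p = 0.0378), with DESeq2 (0.65, 0.0492), with the length trend of each library removed (0.76, 0.0376), and without wild type replicate 3 (0.88, 0.044). Its neighbour and paralog Olig1, chosen after its values were seen, averaged 63.9 ± 11.7 CPM in the libraries labelled MLL4 KD, 31.3 ± 9.42 CPM in the UTX knockout and 40.4 ± 8.66 CPM in wild type. Olig1 did not pass against wild type in the libraries labelled MLL4 KD (log2 fold change 0.66, adjusted p = 0.0579) or in the UTX knockout (-0.37, adjusted p = 0.309).

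Sox11 encodes an HMG-box factor of young neurons. Its levels were 14.5, 22.2 and 17.6 CPM in the libraries labelled MLL4 KD, 6.77, 5.06 and 9.24 CPM in the UTX knockout, and 7.95, 5.71 and 12.9 CPM in wild type. The libraries labelled MLL4 KD lay above the other groups, which overlapped each other. Against wild type Sox11 was 2.05-fold higher in the libraries labelled MLL4 KD (log2 fold change 1.03, SE 0.30, interval 0.38 to 1.69, adjusted p = 0.0254). It lost its call when replicate 2 (adjusted p = 0.105) or 3 (0.0615) of that group, or wild type replicate 2 (0.0707), was left out. The log2 fold change in the UTX knockout was -0.33 (interval -1 to 0.33, adjusted p = 0.498), and it was 0.05 without wild type replicate 3.

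Of the cytoskeletal genes, Tubb3 encodes the beta tubulin that marks young neurons. It stood at 47.3, 38.8 and 37.1 CPM in the libraries labelled MLL4 KD, at 28.2, 17.9 and 24.3 CPM in the UTX knockout, and at 73.6, 69.0 and 70.0 CPM in wild type. The groups were separate and, unlike Nes, the UTX knockout was the lowest. Against wild type Tubb3 was 1.73-fold lower in the libraries labelled MLL4 KD (log2 fold change -0.79, SE 0.16, interval -1.14 to -0.44, adjusted p = 0.00463). Tubb3 was 3.02-fold lower in the UTX knockout (-1.60, SE 0.16, interval -1.96 to -1.24, adjusted p = 0.000361).

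Tubb3 lies on chromosome 8, whose genes were lower as a whole in both groups. The 778 tested genes of chromosome 8 had a median log2 fold change of -0.42 in the libraries labelled MLL4 KD and -0.44 in the UTX knockout, against 0.01 over the other chromosomes in both. On that chromosome 316 genes fell and 9 rose in the first comparison, and 278 fell and 7 rose in the second. Less the chromosome's median, the change of Tubb3 was -0.37 in the libraries labelled MLL4 KD and -1.16 in the UTX knockout. A share of 21.2% of the chromosome's genes had a lower value than Tubb3 in the first comparison, and 3.47% in the second. The part of the chromosome shift in the Tubb3 values was not tested. The other measured members lie on chromosomes 1, 3, 9, 12, 16 and 18, whose medians lay between -0.06 and 0.09 in all 3 comparisons.

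**Figure D2:**
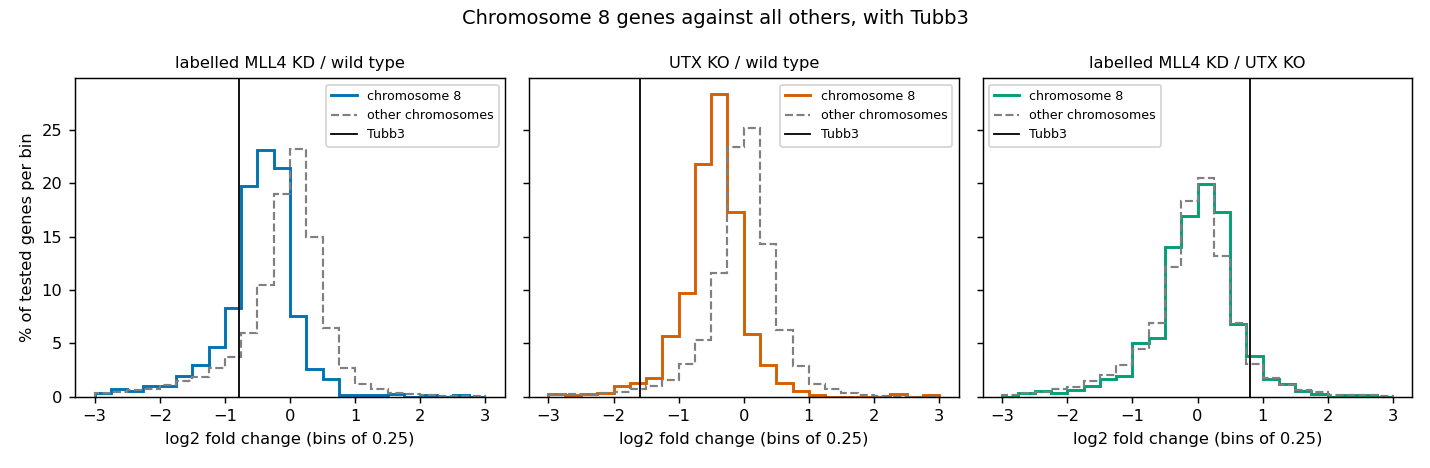
Share of tested genes per bin of 0.25 in log2 fold change, for chromosome 8 (solid) and all other chromosomes (dashed), with a vertical line at Tubb3, in the 3 comparisons. The chromosome 8 distribution is shifted to lower values against wild type, by medians of -0.42 and -0.44, and not between the perturbed groups, where its median is 0.02.

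Map2 encodes a microtubule-associated protein of dendrites. Its levels were 32.8, 27.7 and 29.8 CPM in the libraries labelled MLL4 KD, 20.9, 16.6 and 18.1 CPM in the UTX knockout, and 20.2, 10.6 and 15.1 CPM in wild type. The first group lay above both others, which overlapped. Map2 was 1.97-fold higher than wild type in the libraries labelled MLL4 KD (log2 fold change 0.98, SE 0.20, interval 0.53 to 1.42, adjusted p = 0.00509). Its log2 fold change in the UTX knockout was 0.28 (interval -0.17 to 0.72, adjusted p = 0.386), short of the threshold.

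Of the surface proteins, Ncam1 encodes the neural cell adhesion molecule. It stood at 37.7, 32.1 and 36.6 CPM in the libraries labelled MLL4 KD, at 35.7, 44.7 and 49.8 CPM in the UTX knockout, and at 18.6, 16.8 and 21.3 CPM in wild type. Both perturbed groups lay wholly above wild type and overlapped each other. Ncam1 was 1.87-fold higher in the libraries labelled MLL4 KD (log2 fold change 0.91, SE 0.15, interval 0.58 to 1.23, adjusted p = 0.00148). The UTX knockout had 2.29-fold more (1.2, SE 0.15, interval 0.87 to 1.53, adjusted p = 0.00103).

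Islr2 encodes a membrane protein with leucine-rich repeats that takes part in axon growth. Its levels were 11.6, 26 and 24.7 CPM in the libraries labelled MLL4 KD, 4.22, 5.49 and 8.08 CPM in the UTX knockout, and 1.77, 3.37 and 3.90 CPM in wild type. No groups overlapped, and the spread was wide within each. It was 6.85-fold higher than wild type in the libraries labelled MLL4 KD (log2 fold change 2.78, SE 0.37, interval 1.96 to 3.59, adjusted p = 0.000423). The log2 fold change in the UTX knockout was 0.97 (SE 0.37, interval 0.16 to 1.78, adjusted p = 0.0986), short of the threshold. It passed there with the replicate block (1.00, adjusted p = 0.00407) and with DESeq2 (0.98, 0.0381). A gene antisense to Islr2, listed as 1600029O15Rik, had 0 to 8 counts per library.

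Set against the UTX knockout, the libraries labelled MLL4 KD had 6 members higher and 1 lower, and Ncam1 did not pass. Over all genes 28.9% passed, 13.0% higher and 16.0% lower. The groups did not overlap for 7 members, 6 above and 1 below, against 25.7% of all genes above and 26.9% below (52.6% in all). Zfp521 was 3.64-fold higher (log2 fold change 1.87, SE 0.18, adjusted p = 7.29e-05), Islr2 3.50-fold (1.81, SE 0.35, 0.00344) and Olig2 3.28-fold (1.71, SE 0.24, 0.000635). Sox11 was 2.58-fold higher (1.37, SE 0.30, adjusted p = 0.0067). Tubb3, lower than wild type in both groups, was 1.75-fold higher in the libraries labelled MLL4 KD than in the UTX knockout (0.81, SE 0.16, 0.00421). Nes was 3.46-fold lower (-1.79, SE 0.22, adjusted p = 0.000304). Map2 was 1.63-fold higher (0.70, SE 0.20, adjusted p = 0.0234), a call that ended without replicate 1 (0.0788) or 3 (0.0624) of the libraries labelled MLL4 KD or UTX knockout replicate 2 (0.0917) or 3 (0.0773). Within lane 2 alone Nes, Olig2, Tubb3 and Zfp521 passed, while Islr2 had 1.56 (adjusted p = 0.0848), Map2 0.68 (0.0591) and Sox11 1.00 (0.0645). For Ncam1 the log2 difference was -0.29 (interval -0.62 to 0.03, adjusted p = 0.157).

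**Figure D3:**
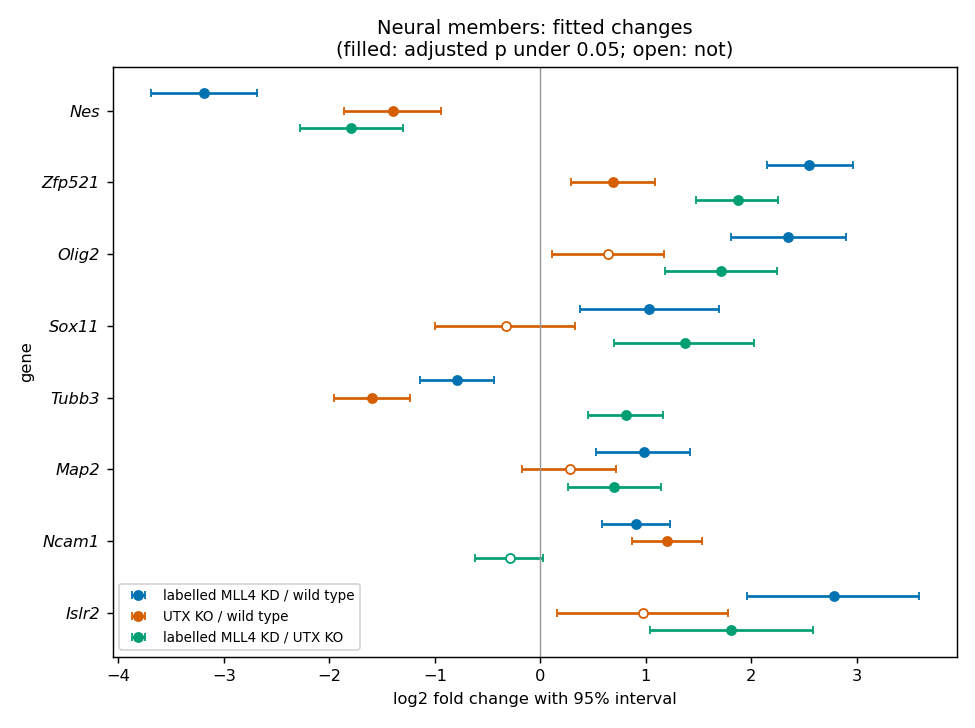
Log2 fold changes with 95% intervals of the 8 measured genes in 3 comparisons, filled where the adjusted p was under 0.05. Nes has the lowest value, -3.19 in the libraries labelled MLL4 KD, and Islr2 the highest, 2.78.

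Per kilobase of exon (union of annotated exons), an approximate scale for setting different genes in order, the order changed between groups. The union can be longer than the transcripts expressed, so the order between genes depends on this divisor. In the libraries labelled MLL4 KD, Olig2 was highest with a mean of 41.6 CPM per kb, followed by Tubb3 at 22.0, Zfp521 at 5.99 and Ncam1 at 4.09. Islr2 (3.51), Sox11 (2.18) and Map2 (1.83) came next, with ranges that overlapped from Ncam1 to Map2 between neighbours, and Nes was last at 1.03. Among UTX knockout levels, Olig2 at 12.7 and Tubb3 at 12.6 CPM per kb could not be put in order, and Ncam1 followed at 5.01, Nes at 3.57 and Zfp521 at 1.65. Map2, Islr2 and Sox11, between 0.845 and 1.13, overlapped. In wild type Tubb3 led with 38.0 CPM per kb. Nes at 9.43 and Olig2 at 8.12 overlapped, Ncam1 followed at 2.18, and Sox11, Zfp521, Map2 and Islr2 lay between 0.508 and 1.06, with ranges that overlapped between neighbours. Nes thus stood behind Tubb3, within the range of Olig2, in wild type and last in the libraries labelled MLL4 KD.

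Across the 9 libraries Nes ran opposite to Olig2 (Pearson r = -0.97 on log2 CPM), Zfp521 (-0.96) and Islr2 (-0.95). Olig2 ran with Islr2 (0.95) and Zfp521 (0.94), and Tubb3 opposite to Ncam1 (-0.90). These are descriptions over 9 libraries that fall into 3 groups, and they mostly restate the group means. By the same measure, the genes most like each member among at least 8932 candidates were taken. For Nes they were the cadherin gene Cdh3 (0.988) and the splicing factor gene Esrp1 (0.987), and for Tubb3 the helicase gene Ddx19a (0.977) and the matricellular gene Cyr61 (0.976). For Olig2 they were Epb4.1l4a and the signalling inhibitor gene Socs2 (0.983 each), and for Islr2 the Notch effector gene Hes1 (0.984) and the zinc finger gene Prdm16 (0.981). Sox11 was most like the helicase gene Recql4 and the corepressor gene Ski (0.975 each), and Map2 most like the kinase gene Pik3ca (0.988) and Ankib1 (0.981). Ncam1 was most like the catalase gene Cat (0.98) and Gng12 (0.977), and Zfp521 like the GTPase gene Rab31 (0.986) and Ivns1abp (0.983). Cdh3 and Ddx19a, like Tubb3, lie on chromosome 8. Esrp1, Prdm16 and Ski lie on chromosome 4, whose median against wild type was -0.21 in the libraries labelled MLL4 KD and -0.15 in the UTX knockout.

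Around the members, 129 other genes of neural pathways were counted, of which 103 were tested. Against wild type, 19 were higher and 23 lower in the libraries labelled MLL4 KD (18.4% and 22.3%), and 13 were higher and 16 lower in the UTX knockout (12.6% and 15.5%). Over all tested genes the shares were 10.8% higher and 15.8% lower in the first comparison. In the second they were 6.55% and 8.92%, and all lay below those of the pathway genes. The lists too were chosen with earlier results of these data known, so this is no test of the pathway genes. The medians of -0.09 and -0.02 lay near those of all genes. In the 9 lists that follow, members are included where they belong. In the libraries labelled MLL4 KD the share higher was above that of all genes in 8 of the 9 lists. The share lower was above it in 7, and in the UTX knockout the counts were 7 and 5 lists. Small lists can pass the share of all genes with 1 call, as with 1 of 5 astrocyte genes (20%). Members are counted again and some lists share genes, so the tally is no test.

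Of 19 tested progenitor factors, 6 (31.6%) were higher and 2 (10.5%) lower in the libraries labelled MLL4 KD than in wild type (median log2 fold change 0.36). The share higher was above the 10.8% of all genes, and the share lower was under the 15.8%. For the UTX knockout 2 (10.5%) were higher and 5 (26.3%) lower (median 0.05), against 6.55% and 8.92% of all genes. Between the perturbed groups 9 (47.4%) were higher and 1 (5.26%) lower in the libraries labelled MLL4 KD, against 13.0% and 16.0% of all genes. Hes1, the Notch effector that keeps progenitors dividing, averaged 70.7 ± 19.1 CPM in the libraries labelled MLL4 KD, 31.6 ± 5.95 CPM in the UTX knockout and 24.7 ± 3.70 CPM in wild type (log2 fold change 1.51 in the first, adjusted p = 0.000591, and 0.35 in the second, 0.288). Vim, the intermediate filament vimentin, averaged 133 ± 23.4, 57.7 ± 5.56 and 88.5 ± 6.67 CPM in the same order of groups. It was higher in the libraries labelled MLL4 KD (0.58, adjusted p = 0.01) and lower in the UTX knockout (-0.62, adjusted p = 0.0134), a fall that lost its call without UTX knockout replicate 2 (0.0703). The UTX knockout count of 7 progenitor factors was 3 without UTX knockout replicate 2 and 4 without replicate 3 of the UTX knockout or of wild type.

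Of 15 proneural and Notch genes, 2 (13.3%) were higher and 5 (33.3%) lower in the libraries labelled MLL4 KD (median -0.66). Over all genes the shares were 10.8% and 15.8%. In the UTX knockout 1 (6.67%) was higher and 2 (13.3%) lower (median -0.13), against 6.55% and 8.92% of all genes. With the replicate block the second count was 2 higher and 5 lower, and without UTX knockout replicate 2 it was 1 gene in all. Dll1, a Notch ligand, averaged 3.35 ± 0.437 CPM in the libraries labelled MLL4 KD, 20.6 ± 5.42 CPM in the UTX knockout and 12 ± 5.59 CPM in wild type. It was lower in the first (log2 fold change -1.83, adjusted p = 0.00187) and had a value of 0.78 in the second (adjusted p = 0.0911; without wild type replicate 1, 1.25 and 0.0041). Hey1, a Notch target, had means of 1.92 ± 0.296 CPM in the libraries labelled MLL4 KD, 8.49 ± 1.49 CPM in the UTX knockout and 5.66 ± 0.853 CPM in wild type. It fell in the first (-1.55, adjusted p = 0.000602) and had a value of 0.59 in the second (adjusted p = 0.0704). Hey1 passed there without UTX knockout replicate 1 (0.73, 0.0346) or wild type replicate 1 (0.73, 0.0348). Neurog1, a proneural factor, was close to the floor, at 0.149 ± 0.113 CPM in the libraries labelled MLL4 KD, 0.296 ± 0.0895 CPM in the UTX knockout and 1.39 ± 0.414 CPM in wild type. It was lower in both (-3.23, adjusted p = 0.00109, and -2.23, adjusted p = 0.00892), and without UTX knockout replicate 2 the second call ended (0.0551).

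Of 17 cytoskeletal genes, 4 (23.5%) were higher and 2 (11.8%) lower in the libraries labelled MLL4 KD (median -0.02). All genes had 10.8% and 15.8%. In the UTX knockout 2 (11.8%) were higher and 5 (29.4%) lower (median -0.56), against 6.55% and 8.92% of all genes. The second count was 3 higher and 9 lower with the replicate block, and 4 genes in all without UTX knockout replicate 2 or 3. Gap43, a growth cone protein, averaged 12 ± 2.09 CPM in the libraries labelled MLL4 KD, 3.48 ± 0.905 CPM in the UTX knockout and 9.97 ± 0.764 CPM in wild type. Its fall in the UTX knockout passed (log2 fold change -1.52, adjusted p = 0.00156), and its value of 0.27 in the other group did not (0.346). Ina, the neurofilament protein internexin, averaged 42.0 ± 10.3, 13.0 ± 4.94 and 42.5 ± 5.76 CPM in the same order, with a fall in the UTX knockout (-1.72, adjusted p = 0.00205). Between the perturbed groups Gap43 and Ina were higher in the libraries labelled MLL4 KD, by 1.79 (adjusted p = 0.000234) and 1.70 (0.00081), as was Tubb3 above. Crmp1, a collapsin response mediator, had means of 25.3 ± 11.8 CPM in the libraries labelled MLL4 KD, 55.1 ± 10.4 CPM in the UTX knockout and 96.5 ± 13.0 CPM in wild type. It fell in the first (-1.93, adjusted p = 0.000534) and had a value of -0.81 in the second (0.0553). In the second it passed with the replicate block (-0.82, adjusted p = 0.00301), without replicate 1 labelled MLL4 KD (0.00942) and without UTX knockout replicate 1 (0.0496).

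**Figure D4:**
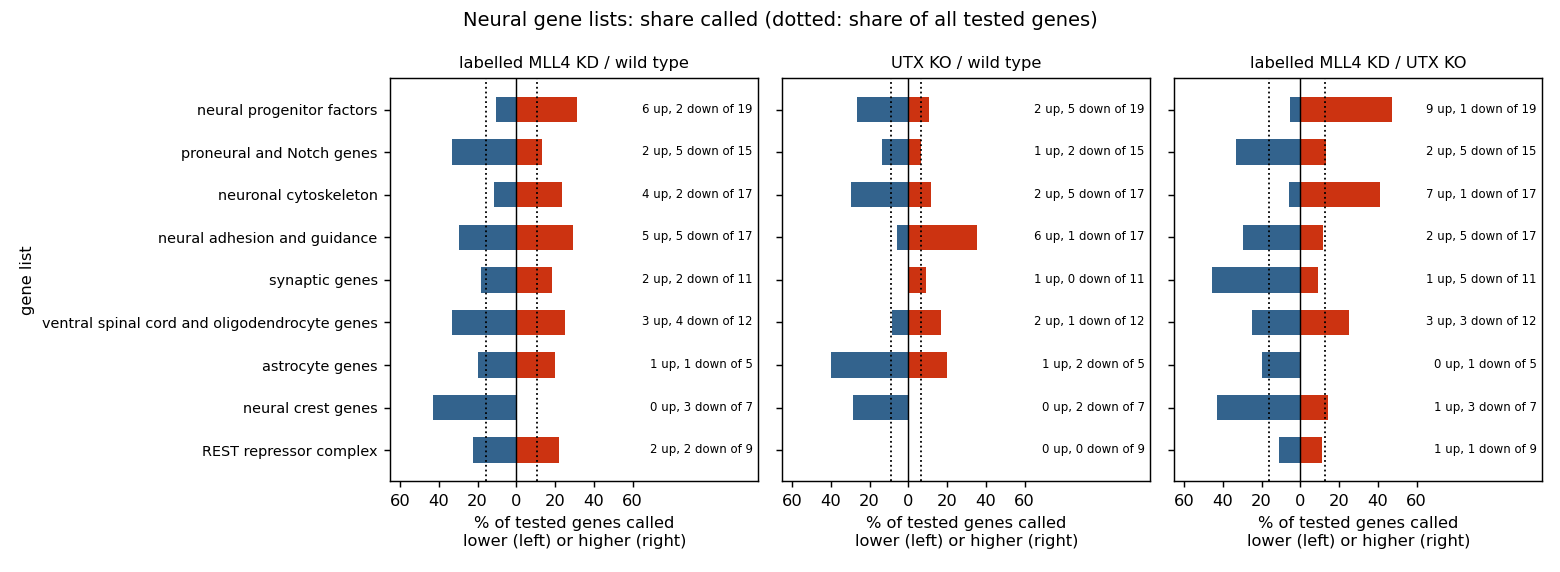
Share of tested genes lower (left) and higher (right) at adjusted p under 0.05 in 9 neural gene lists and 3 comparisons, with counts beside the bars and dotted lines at the share of all 14772 tested genes. Between the perturbed groups progenitor factors (9 higher, 1 lower) and cytoskeletal genes (7 and 1), members included, have more higher than lower calls. More are lower among synaptic (1 higher, 5 lower), proneural and Notch (2 and 5), adhesion and guidance (2 and 5), neural crest (1 and 3) and astrocyte genes (0 and 1). Over all genes 13.0% were higher and 16.0% lower. Leaving out 1 library gave 2 to 6 synaptic calls and 1 to 4 neural crest calls.

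Of 17 adhesion and guidance genes, 5 were higher and 5 lower in the libraries labelled MLL4 KD (29.4% each, median -0.09). Over all genes the shares were 10.8% and 15.8%. In the UTX knockout 6 (35.3%) were higher and 1 (5.88%) lower (median 0.74), against 6.55% and 8.92% of all genes. Ntn1, the guidance cue netrin, averaged 229 ± 56.5 CPM in the libraries labelled MLL4 KD, 116 ± 13.5 CPM in the UTX knockout and 45.8 ± 19.6 CPM in wild type. It was higher in both (log2 fold change 2.32, adjusted p = 0.000271, and 1.34, adjusted p = 0.0102). Slit2, a repulsive cue, had means of 23.6 ± 1.64, 19.9 ± 2.05 and 10.9 ± 2.14 CPM in the same order and was also higher in both (1.12, adjusted p = 0.000695, and 0.87, adjusted p = 0.006). Cntn2, an axonal adhesion protein, averaged 7.09 ± 0.647 CPM in the libraries labelled MLL4 KD, 20 ± 2.12 CPM in the UTX knockout and 8.59 ± 3.04 CPM in wild type. It was higher in the UTX knockout (1.23, adjusted p = 0.00571), and its value of -0.27 in the other group did not pass (0.415). Between the perturbed groups 2 genes of the list were higher and 5 lower in the libraries labelled MLL4 KD, and 3 and 8 with the replicate block. The shares by the main fit were 11.8% and 29.4%, against 13.0% and 16.0% of all genes. That count of 7 was 4 without replicate 2 of either perturbed group.

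Of 12 genes of the ventral spinal cord and oligodendrocyte lineage, 3 (25%) were higher and 4 (33.3%) lower in the libraries labelled MLL4 KD (median 0). All genes had 10.8% and 15.8%. In the UTX knockout 2 (16.7%) were higher and 1 (8.33%) lower (median 0.03), against 6.55% and 8.92% of all genes. The first count fell to 4 genes in all without replicate 2 or 3 of those libraries or wild type replicate 2. Pdgfra, a receptor of oligodendrocyte progenitors, averaged 7.48 ± 0.663 CPM in the libraries labelled MLL4 KD, 2.72 ± 0.429 CPM in the UTX knockout and 1.25 ± 0.244 CPM in wild type. It was higher in both (log2 fold change 2.59, adjusted p = 2.91e-05, and 1.13, adjusted p = 0.00903). Pdgfra also marks primitive endoderm, whose 6 other markers summed to 22.3 to 24.7 CPM in the libraries labelled MLL4 KD, 13.0 to 17.0 CPM in the UTX knockout and 11.9 to 15.6 CPM in wild type. The part of such cells in the Pdgfra values was not tested. Mbp, myelin basic protein, fell in the libraries labelled MLL4 KD (3.98 ± 0.200 CPM, against 12 ± 1.58 CPM in wild type, log2 fold change -1.58, adjusted p = 6.52e-05). Mbp had 10.1 ± 0.294 CPM in the UTX knockout (-0.24, adjusted p = 0.299). Cspg4, the NG2 proteoglycan of oligodendrocyte progenitors, was lower in both (-2.09, adjusted p = 0.00176, and -1.82, adjusted p = 0.0067), with 0.332 ± 0.0712 CPM in the libraries labelled MLL4 KD, 0.406 ± 0.159 CPM in the UTX knockout and 1.43 ± 0.0603 CPM in wild type.

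Of 11 synaptic genes, 2 were higher and 2 lower in the libraries labelled MLL4 KD (18.2% each, median -0.13). Over all genes the shares were 10.8% and 15.8%. Without replicate 2 or 3 of those libraries 2 passed in all. In the UTX knockout 1 (9.09%) was higher and 0 lower by edgeR, against 6.55% and 8.92% of all genes. Counts there were 4 and 1 at an unadjusted p under 0.05, 3 and 0 by DESeq2, and 4 and 1 with the replicate block. Syt1, a calcium sensor of vesicle release, rose in the libraries labelled MLL4 KD (2.08 ± 0.386 CPM, against 0.682 ± 0.0917 CPM in wild type, log2 fold change 1.61, adjusted p = 0.0023). It had 0.540 ± 0.0640 CPM in the UTX knockout (-0.33, adjusted p = 0.525). Syp, the vesicle protein synaptophysin, averaged 0.871 ± 0.199 CPM in the libraries labelled MLL4 KD, 1.86 ± 0.855 CPM in the UTX knockout and 3.15 ± 0.519 CPM in wild type. It fell in the first (-1.84, adjusted p = 0.00369), and its value of -0.75 in the second (0.148) passed only with the replicate block, among the settings run (-0.80, adjusted p = 0.0333, and -0.77, 0.0295, with the length trend removed as well). The count by edgeR was 0 in all without replicate 2 or 3 of either perturbed group, and 2 without replicate 1 of the UTX knockout or of wild type.

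Of 5 astrocyte genes, 1 was higher and 1 lower in the libraries labelled MLL4 KD (20% each). All genes had 10.8% and 15.8%. In the UTX knockout 1 (20%) was higher and 2 (40%) lower, against 6.55% and 8.92% of all genes. The first count was 1 gene in all without replicate 1 or 2 of those libraries or wild type replicate 3, and the second was 1 without UTX knockout replicate 2 or 3. Slc1a3, a glutamate transporter, averaged 13.1 ± 0.0845 CPM in the libraries labelled MLL4 KD, 9.70 ± 0.213 CPM in the UTX knockout and 21.8 ± 5.03 CPM in wild type, and was lower in both (log2 fold change -0.73, adjusted p = 0.00773, and -1.16, 0.00175). Aldoc, a glycolytic aldolase, was higher in the UTX knockout (108 ± 36.0 CPM, against 48.3 ± 6.21 CPM in wild type, 1.16, adjusted p = 0.019). Aldoc lost that call when UTX knockout replicate 2 (0.0853) or 3 (0.0667), or replicate 3 of wild type (0.0551), was left out. In the libraries labelled MLL4 KD Aldoc had 31.5 ± 10.6 CPM (-0.62, adjusted p = 0.13, and -0.68, 0.00862, with the replicate block). Gja1, connexin 43, was lower in the UTX knockout (156 ± 16.8 CPM, against 302 ± 115 CPM in wild type, -0.96, adjusted p = 0.0146). The Gja1 call ended without UTX knockout replicate 2 (0.0654) or 3 (0.0679).

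Of 7 neural crest genes, 0 were higher and 3 (42.9%) lower in the libraries labelled MLL4 KD by edgeR. Over all genes the shares were 10.8% and 15.8%. Counts there were 1 and 3 at an unadjusted p under 0.05 and 0 and 3 by DESeq2, and 5 passed in all without wild type replicate 1. In the UTX knockout 0 were higher and 2 (28.6%) lower, against 6.55% and 8.92% of all genes. There 0 and 3 passed unadjusted and 0 and 1 by DESeq2, and 1 passed without any library other than wild type replicate 1. Ets1, an ETS factor, averaged 1.79 ± 0.109 CPM in the libraries labelled MLL4 KD, 2.93 ± 0.380 CPM in the UTX knockout and 10 ± 2.61 CPM in wild type. It was lower in both (log2 fold change -2.48, adjusted p = 5.09e-05, and -1.77, 0.00103). Tfap2a, listed as Tcfap2a, was lower in the libraries labelled MLL4 KD (0.4 ± 0.0837 CPM, against 1.43 ± 0.163 CPM in wild type, -1.84, adjusted p = 0.00314). Tfap2a had 0.671 ± 0.205 CPM in the UTX knockout (-1.09, adjusted p = 0.0432), and that call ended without any library other than wild type replicate 1 (between 0.0583 and 0.117). Foxd3, a factor of stem cells and neural crest, averaged 25.9 ± 7.23 CPM in the libraries labelled MLL4 KD, 5.14 ± 1.31 CPM in the UTX knockout and 10.7 ± 6.92 CPM in wild type. It was higher in the libraries labelled MLL4 KD than in the UTX knockout (2.33, adjusted p = 0.00423). Against wild type it had 1.27 in the libraries labelled MLL4 KD (adjusted p = 0.0563, and 0.00789 with the replicate block). Without wild type replicate 1 that value was 0.85 (0.031) and without wild type replicate 3 it was 1.71 (0.0304).

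Genes of the REST complex, which represses neuronal genes outside neurons, were set against 10.8% higher and 15.8% lower of all genes. In the libraries labelled MLL4 KD 2 (22.2%) of 9 were higher and 2 (22.2%) lower. That count was 2 genes in all without any replicate labelled MLL4 KD, UTX knockout replicate 3 or wild type replicate 3. For the UTX knockout edgeR called 0 of 9, against 15.5% of all genes. There 1 had an unadjusted p under 0.05, DESeq2 called 0, and 1 passed without wild type replicate 1. Rest itself averaged 534 ± 21.8 CPM in the libraries labelled MLL4 KD, 532 ± 17.7 CPM in the UTX knockout and 488 ± 59.2 CPM in wild type (log2 fold change 0.13, adjusted p = 0.414, and 0.12, 0.483). Rcor1, its corepressor, was higher in the libraries labelled MLL4 KD (77.4 ± 3.61 CPM, against 47.0 ± 7.91 CPM in wild type, 0.72, adjusted p = 0.0031). Hdac1, a deacetylase, was lower there (230 ± 13.4 CPM, against 341 ± 14.5 CPM in wild type, -0.57, adjusted p = 0.00149). Hdac1 lies on chromosome 4, whose median was -0.21 in that comparison. Rcor3, a paralog of Rcor1, had 7.38 ± 0.485 CPM in the libraries labelled MLL4 KD and 4.76 ± 1.10 CPM in wild type (0.64, adjusted p = 0.0407). The Rcor3 call ended without any replicate labelled MLL4 KD, UTX knockout replicate 3 or wild type replicate 2 or 3 (adjusted p between 0.0521 and 0.111).

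**Figure D5:**
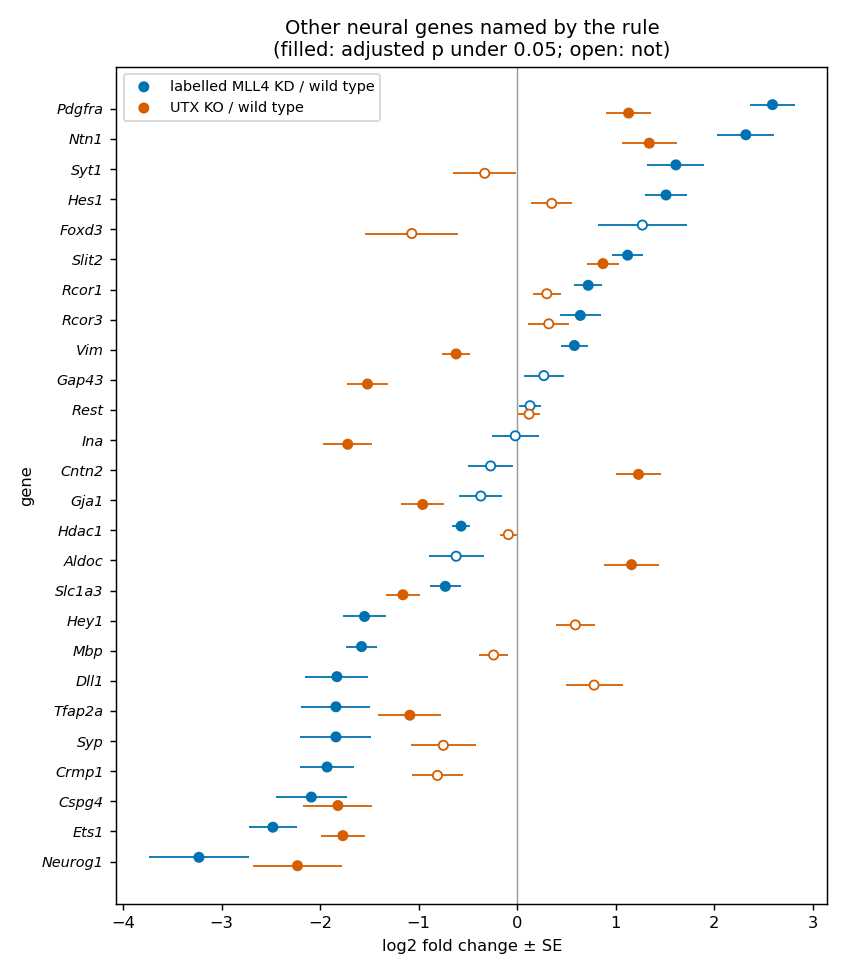
Log2 fold changes with SE against wild type for 26 pathway genes outside the 9 chosen genes, in the libraries labelled MLL4 KD and in the UTX knockout, filled where the adjusted p was under 0.05. Pdgfra, Ntn1 and Slit2 are higher in both groups, and Neurog1, Ets1, Cspg4, Slc1a3 and Tfap2a lower in both. Within lane 2 alone Slc1a3 kept its UTX knockout call. Pdgfra, Ntn1, Slit2, Neurog1, Ets1, Cspg4 and Tfap2a did not pass there (adjusted p between 0.0619 and 0.261).

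Markers of whole cell types set these values in context. Stem cell markers summed to between 6550 and 7230 CPM in the libraries labelled MLL4 KD, 6470 and 7060 CPM in the UTX knockout, and 5460 and 6410 CPM in wild type (10 of 10 markers measured). Mature neuron markers summed to between 257 and 357, 288 and 337, and 284 and 332 CPM in the same order (9 of 9 with a row). Without Stmn2, a microtubule regulator that made up most of the sum, they were 70.9 to 72.4, 74.3 to 99.5 and 66.4 to 79.5 CPM. Single markers went both ways, with Syt1 higher and Rbfox3 at 0.769 to 0.968 CPM in the libraries labelled MLL4 KD, against 1.36 to 2.13 CPM in wild type. Slc17a6, the vesicular glutamate transporter, was under 1 CPM in every library. Neural progenitor markers other than Nes, of which 5 had a row, summed to between 65.6 and 75.1, 61.8 and 85.3, and 66.4 and 93.1 CPM. The 3 groups overlapped in this sum. Msi1 made up most of it, at 44.5 to 69.3 CPM, and passed in neither comparison with wild type. Prom1 was lower in the libraries labelled MLL4 KD (log2 fold change -1.46, adjusted p = 0.00307) and did not pass in the UTX knockout (-0.68, 0.104). Pax6 was lower in the UTX knockout (-1.41, adjusted p = 0.0026) and did not pass in the libraries labelled MLL4 KD (-0.55, 0.0721). Fabp7 and Hes5, defining markers of radial glia, were under 1 CPM in every library. The 5 oligodendrocyte lineage markers other than Olig2 summed to between 66.1 and 91.3, 39.6 and 58.6, and 52.5 and 65.8 CPM, with Mbp lower in the libraries labelled MLL4 KD.

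Feeder or fibroblast markers summed to between 19.4 and 21.6 CPM in the libraries labelled MLL4 KD, 13.9 and 27.3 CPM in the UTX knockout, and 46.5 and 230 CPM in wild type. Of those 10 markers Lum was at 0 in every library and 5, Lum among them, were under 1 CPM in every library. Tagln and Acta2 made up most of the wild type sums, with Tagln at 31.2, 158 and 103 CPM in replicates 1 to 3. Trophectoderm markers (8 of 8 with a row) summed to between 66.3 and 72.8, 80.6 and 123, and 130 and 559 CPM in the same order of groups. Krt8 and Krt18 made up most of that sum in wild type replicates 2 and 3, with Krt18 at 231 and 184 CPM. In wild type replicate 1 Tfap2c was the largest, at 65.5 CPM. Both sums were higher in wild type, as Nes and Tubb3 were, and their part in those values was not tested. Of the wild type libraries, replicate 1 was the highest in Nes. It was the lowest in Krt8 (19.7 CPM, against 211 and 170 CPM in replicates 2 and 3). Acta2 was also lowest there (3.84 CPM, against 50.8 and 43.9 CPM). Other markers of these lists differed, with Thy1 highest in replicate 1 (9.66 CPM, against 4.01 and 3.85 CPM). Tfap2c was at 65.5, 66.1 and 79 CPM in wild type replicates 1 to 3. Mesendoderm markers summed to between 13.7 and 20.3, 13.0 and 17.7, and 12.4 and 19.4 CPM, and 4 of 6 were under 1 CPM in every library.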

How the data were processed

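The authors deposited raw counts of reads for each gene symbol and library in a single table. The submitters' processing notes name STAR 2.4, HTSeq 0.6.1, mm9 and hg19, without roles. Annotation and strand setting: not given in the sources used here, so antisense reads may be counted with a gene. Of 33924 genes, 24396 had a count and 14772 passed filterByExpr and were tested. CPM values computed here use TMM factors, and correlations used log2 CPM with a prior count of 2.

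Tests were made in edgeR 4.0.16 (R 4.3.3) by quasi-likelihood. The fit held all 9 libraries and a group term, and calls were two-sided, at Benjamini-Hochberg adjusted p under 0.05 over the tested genes of each comparison. Intervals are at 95%. With 3 against 3 libraries the smallest exact permutation p is 0.1, and none is given. The code was tested on simulated data. Libraries with the same number deviated together from their group means (correlations across genes between 0.168 and 0.467 in the 3 comparisons). The main fit did not pair them, and the replicate number was a block in an alternative fit only. Within groups every pair differed beyond sampling noise, with a chi-square per degree of freedom between 6.421 and 56.53.

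The members and lists were chosen with earlier results of these data known. Besides the members, the text names up to 3 called genes of smallest p in each list, Rest, and the 2 genes most correlated with each member among those of mean log2 CPM of at least 3. Some genes that met this rule are not reported here. Olig1, Msi1, Prom1, Pax6, Krt8, Krt18, Tfap2c, Tagln, Acta2, Thy1 and Rbfox3 were chosen after their values were seen. Chromosomes and exon lengths came from GENCODE M21 (GRCm38), and promoters from RefSeq for 7 of the 9 members. Alternatives were other normalizations and filters, DESeq2 1.42.0, the replicate block, fewer groups, lane 2 alone and leaving out each library. Removal of each library's length trend by a loess offset, alone or with the block, and TMM factors without chromosomes 4, 8 and Y were chosen after seeing the data.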

Additional observations from a re-analysis of the deposited data

How the results depend on the processing

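Of 456 values of members under alternatives, 427 kept their direction and their side of the threshold, 10 gained a call, 18 lost one and 1 reversed. The reversal was Sox11 in the UTX knockout (0.05 without wild type replicate 3, not called, with the lowest value -0.57 without wild type replicate 2). The replicate block raised the UTX knockout count over all genes to 3446, and the block with the length trend removed raised it to 4288 and the count of the libraries labelled MLL4 KD to 6297. The block changed 2 calls of members, Olig2 and Islr2 in the UTX knockout. The 2 groups alone gave 1240 genes in the UTX knockout. Lane 2 alone, with 2 libraries a group, gave 74 genes and 1 member in the UTX knockout, 1341 genes in the libraries labelled MLL4 KD, and 1535 genes and 4 members between them. The member left in the UTX knockout was Tubb3. Named pathway genes also lost UTX knockout calls in lane 2 (adjusted p between 0.0619 and 0.261). They were Pdgfra, Ntn1, Slit2, Neurog1, Ets1, Cspg4, Gap43, Ina, Cntn2, Gja1, Vim, Aldoc and Tfap2a. Rcor3, Syp, Syt1 and Tfap2a lost theirs in the libraries labelled MLL4 KD (between 0.0635 and 0.237), and Foxd3 between the perturbed groups (0.0843). Leaving out 1 library gave 833 to 2854 genes and 3 to 4 members in the UTX knockout, 2273 to 4108 genes and 7 to 8 members in the libraries labelled MLL4 KD, and 2556 to 5281 genes and 6 to 7 members between them. Counts over all genes moved by over 1.5 times without UTX knockout replicate 2 (833) or 3 (1100) in the UTX knockout, and without replicate 2 (2273) or 3 (2411) labelled MLL4 KD in those libraries. Between them the count fell to 2556 to 2840 without any replicate labelled MLL4 KD or UTX knockout replicate 2 or 3. With the length trend removed, the share of calls that were higher was 52.6% in the UTX knockout (42.4% before), 58.4% in the libraries labelled MLL4 KD (40.5%) and 54.4% between them (44.8%), and the median of all genes moved up by 0.114 in the libraries labelled MLL4 KD (0.12 with the block as well) and by at most 0.063 in the other comparisons. Less that shift, Tubb3 there had -0.66 and Nes -3.25. Without wild type replicate 2, Sox11 lost its call in the libraries labelled MLL4 KD and Zfp521 in the UTX knockout. Of 513 list counts under alternatives, 402 stayed within 1.5 times. Of 1471 values of other pathway genes, 14 changed sign, none of them called. Over the runs that left out 1 library, Cspg4 lay between -0.45 and 0.08 against the UTX knockout and Rest reached -0.03 (without replicate 2 labelled MLL4 KD), -0.02 (without UTX knockout replicate 1) and 0 (without UTX knockout replicate 3). Rest was also 0 in lane 2 and with the mean CPM filter. Against wild type, in the libraries labelled MLL4 KD, such runs gave -0.50 to 0.03 for Cntn2, -0.53 to 0 for Gja1 and -0.23 to 0.10 for Ina. Ina was also 0.13 with the length trend removed, 0.11 with the block as well and 0.01 with no filter. The causes were not tested. Depth limits what can be said of Neurog1, Cspg4, Syt1 and Tfap2a, which lay near 1 CPM.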
